A study of Homo sapiens with 8 samples.

Results

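A group of 9 transcription factors of the epidermal lineage were followed in N/TERT cells treated with ethanol or O/A. They are TP63, KLF4, KLF5, GRHL1, GRHL2, GRHL3, ZNF750, OVOL1 and SOX9, chosen by gene symbol for their known part in epidermal identity and differentiation. Earlier results of these data were known when the genes were chosen. These 9 genes stand among 61806 genes in the deposited table, and all 9 had enough counts to enter the test, which covered 14893 genes. N/TERT cells (N/TERT-1) are a wild-type line of human epidermal keratinocytes immortalized with telomerase, so each culture comes from the same line, which limits how far it stands for skin. One group of 4 libraries came from cells given ethanol, the solvent control, and the other 4 from cells given O/A, which is oligomycin, an inhibitor of the mitochondrial ATP synthase, with antimycin A, an inhibitor of complex III of the respiratory chain. The labels give neither dose nor time, but the study's text gives 4 hours for the sequenced cells and, for its other experiments, oligomycin at 10 µM with antimycin A at 4 µM. Both groups grew in serum-free keratinocyte medium with epidermal growth factor, bovine pituitary extract and added calcium chloride. The study sequenced mRNA to examine genes of cholesterol synthesis and uptake, and did not set out to compare these factors.

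Stratified epidermis renews itself from a basal layer whose cells leave the cell cycle, move upwards and cornify. The p63 protein, encoded by TP63, holds keratinocytes in the epidermal lineage and acts in the basal layer as well as in the start of differentiation. KLF4, KLF5, the grainyhead-like factors GRHL1 to GRHL3, ZNF750 and OVOL1 act with p63 or after it. Their parts differ, and include barrier and junction genes and the balance between proliferation and differentiation. SOX9, in contrast, is known for the stem cells and outer root sheath of the hair follicle.

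Of the 9 factors, 5 were upregulated and 2 were downregulated by O/A, and 2 were not called. KLF4 rose most, by 3.29-fold, followed by KLF5 (1.88-fold) and OVOL1 (1.65-fold), while ZNF750 (1.31-fold) and GRHL1 (1.30-fold) rose less. SOX9 fell to 0.535 of its ethanol level and GRHL2 to 0.702, and TP63 itself stood at 0.963 of its ethanol level. A gene was called when edgeR's quasi-likelihood test gave an adjusted p of 0.05 or less and its absolute log2(FC), the log2 of O/A over ethanol, was above 0.25. By that rule 34.7% of all genes tested were called, 15.8% higher and 18.9% lower in O/A, against 77.8% of the 9 factors. The adjusted p alone passed for the same 7 factors and for 53.7% of all genes, and an absolute log2(FC) above 1 was reached by 1 factor, KLF4, and by 5.35% of all genes. The median absolute log2(FC) was 0.51 for the 9 factors and 0.20 for all genes tested. RNA was taken from whole cultures, so fewer cells that express a gene and less of its RNA per cell cannot be told apart.

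**Figure D1:**
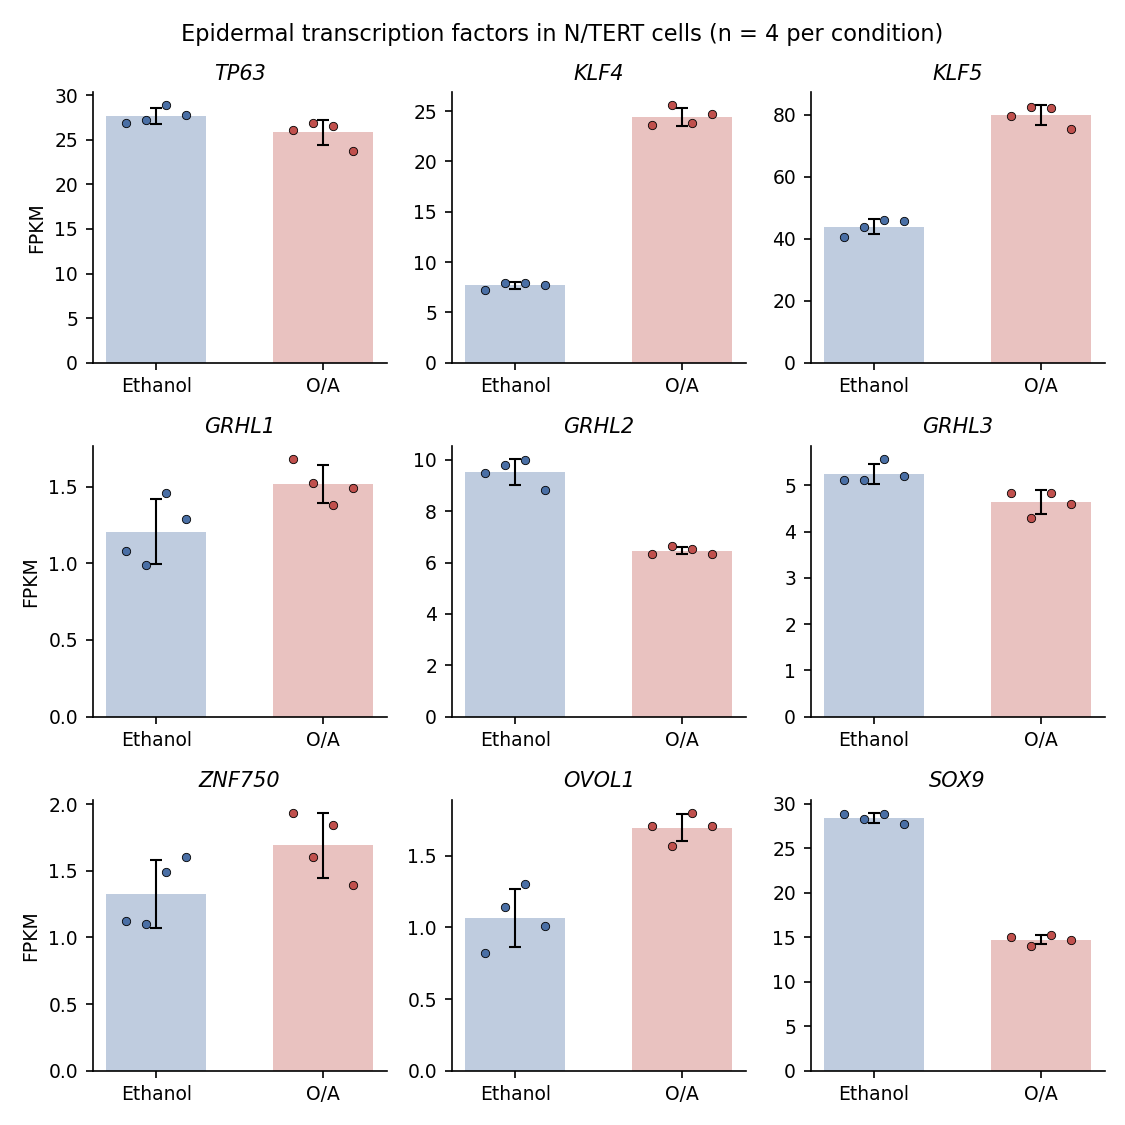
FPKM (y axis, linear from 0, a separate scale for each gene) of the 9 factors in ethanol and O/A. Points are single libraries (n = 4 per condition), bars the mean and error bars the SD. The O/A points of KLF4, KLF5 and OVOL1 lie above all ethanol points, those of SOX9, GRHL2 and GRHL3 below them, and the points of TP63, GRHL1 and ZNF750 overlap.

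**Figure D2:**
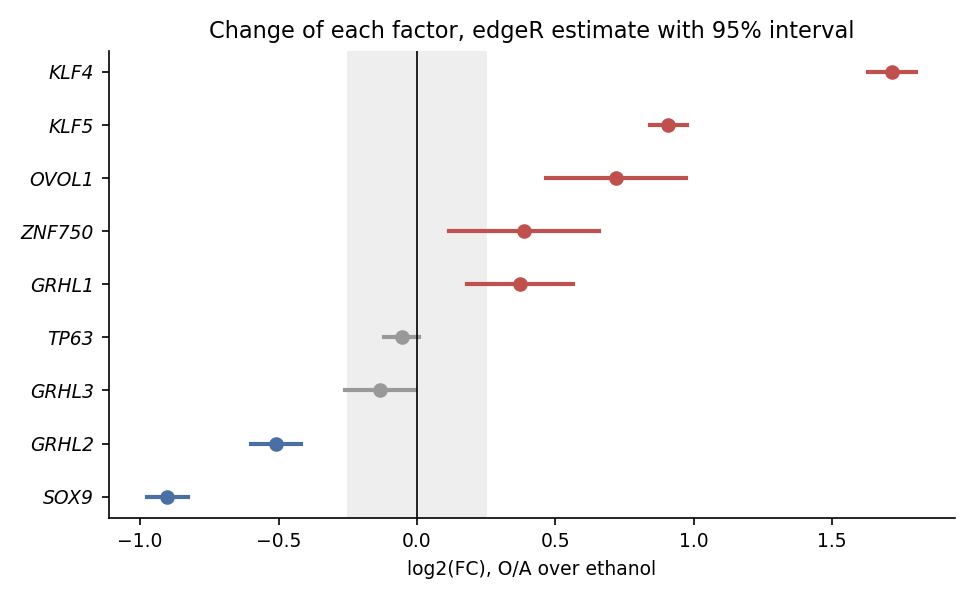
The log2(FC) of each factor (x axis, O/A over ethanol) with its 95% interval from edgeR. Red marks genes called higher, blue genes called lower and grey genes not called, and the shaded band spans the fold change threshold of 0.25 on either side of 0. The estimates run from -0.90 for SOX9 to 1.72 for KLF4.

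The sequences before the start of KLF4, KLF5 and GRHL1 are shown because these are the windows of the factors that hold the GC-rich letters GGGCGGGG, which KLF proteins are known to bind, and all 3 genes rose. Whether the letters bear on the rise was not tested. Windows of 250 bases before to 50 after the start were taken from RefSeq (GRCh38.p14), which gave 7 windows for 5 of the 9 genes, TP63, KLF4, KLF5, GRHL1 and GRHL3. GRHL2, ZNF750, OVOL1 and SOX9 had no entry. The 250 bases before the start are printed 5′ to 3′ on the strand of the gene, with the match to GGGCGGGG or its complement on the other strand in capitals. They lie at chr9:107489770-107490019 (minus strand) for KLF4, whose RefSeq start lies 713 bases inside the gene as the deposited table bounds it, at chr13:73058755-73059004 (plus strand) for the inner start of KLF5 and at chr2:9951443-9951692 (plus strand) for GRHL1.
KLF4: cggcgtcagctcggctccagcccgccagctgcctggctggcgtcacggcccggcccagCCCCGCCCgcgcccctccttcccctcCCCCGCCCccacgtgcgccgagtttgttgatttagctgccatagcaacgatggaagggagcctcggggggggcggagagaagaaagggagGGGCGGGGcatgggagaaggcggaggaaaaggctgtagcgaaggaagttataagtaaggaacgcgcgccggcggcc
KLF5: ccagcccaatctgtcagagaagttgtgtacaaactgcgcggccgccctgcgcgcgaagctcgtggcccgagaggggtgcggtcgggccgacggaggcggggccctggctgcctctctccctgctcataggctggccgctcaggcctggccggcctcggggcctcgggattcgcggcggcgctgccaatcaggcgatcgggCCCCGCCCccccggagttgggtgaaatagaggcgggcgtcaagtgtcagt
GRHL1: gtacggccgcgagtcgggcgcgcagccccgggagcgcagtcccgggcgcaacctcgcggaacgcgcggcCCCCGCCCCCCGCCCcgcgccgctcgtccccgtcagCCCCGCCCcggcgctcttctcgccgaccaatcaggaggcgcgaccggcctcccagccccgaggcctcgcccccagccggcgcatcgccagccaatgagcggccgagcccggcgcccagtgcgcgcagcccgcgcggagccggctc
KLF4 and GRHL1 held 3 matches each and KLF5 held 1, and the matches of GRHL1 include a pair that shares a base. The same letters occur in 22.8% of the 35116 RefSeq windows of this length, and in 3 of the 7 windows of these genes, so their presence is common. The letters CCACACCC (3.28% of all windows), AACCGGTT of grainyhead-like factors (0.134%), a p63 motif (0.151%) and TGATGNAA of ATF4 (3.62%), searched on both strands, were in none of the 7 windows. ACAATGG of SOX factors (3.16% of all windows) was found once, 53 to 59 bases before the outer start of KLF5. A match is a description of the letters and not a binding site. The p63 motif was searched as a fixed string of 13 letters, and a p63 site with other spacing would not match it. The absence of that string and its share of all windows thus say nothing about such sites, which were not tested.

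TP63 lies on chromosome 3 of GRCh38 from 189631389 to 189897276 on the plus strand, and its 14 annotated transcripts are counted together, so the long and the N-terminally truncated forms of p63 were not separated. It had 26.9, 27.2, 28.9 and 27.8 FPKM (fragments scaled to exon length and to the library total) in ethanol replicates 1 to 4. In O/A replicates 1 to 4 it had 26.1, 26.9, 26.5 and 23.8 FPKM. The groups overlapped, and O/A replicate 4 was the lowest of the 8 libraries. The log2(FC) was -0.05 with a 95% interval of -0.118 to 0.00850 (edgeR adjusted p = 0.140), so a fall larger than the threshold of 0.25 lay outside the interval. An exact permutation test of the same libraries, 4 against 4, gave p = 0.286 (two-sided).

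KLF4, a zinc finger factor of the epidermal barrier, lies on chromosome 9 from 107484852 to 107490482 on the minus strand. Its level was 7.19, 7.92, 7.92 and 7.67 FPKM in ethanol and 23.6, 25.6, 23.8 and 24.7 FPKM in O/A, replicates 1 to 4. The lowest O/A library thus lay far above the highest ethanol library. The log2(FC) was 1.72 (standard error 0.0436, edgeR adjusted p = 5.92e-36), which lay at percentile 99.2 of all genes tested. In O/A the FPKM of KLF4 overlapped that of TP63, and only KLF5 stood clearly above it.

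KLF5, a related factor that is prominent in basal keratinocytes, lies on chromosome 13 from 73054976 to 73077541 on the plus strand. It had 40.5, 43.6, 45.9 and 45.6 FPKM in ethanol and 79.6, 82.6, 82.0 and 75.4 FPKM in O/A. By FPKM it was the highest of the 9 factors in both conditions, without overlap with the next. The log2(FC) was 0.91 (standard error 0.0333, edgeR adjusted p = 1.33e-21). KLF4 rose more than KLF5, since the ratio of KLF4 to KLF5 per kilobase went from 0.168 to 0.182 in ethanol to 0.291 to 0.328 in O/A, a difference of 0.81 on the log2 scale (standard error 0.0452).

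The grainyhead-like family went in different directions. GRHL1 (chromosome 2, 9951693 to 10002277) had 1.08, 0.99, 1.46 and 1.29 FPKM in ethanol and 1.68, 1.52, 1.38 and 1.49 FPKM in O/A. O/A replicate 3 lay below ethanol replicate 3, so the groups overlapped, and the gene had only 139 to 236 counts per library. Its log2(FC) was 0.37 (standard error 0.0950, edgeR adjusted p = 8.42e-04), and the exact permutation test gave p = 0.0571.

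GRHL2 (chromosome 8, 101492439 to 101669726), which keeps epithelial genes such as E-cadherin active, had 9.47, 9.78, 10.01 and 8.83 FPKM in ethanol and 6.35, 6.65, 6.53 and 6.34 FPKM in O/A. Every O/A library lay below every ethanol library, and the log2(FC) was -0.51 (standard error 0.0448, edgeR adjusted p = 3.94e-14). GRHL3 (chromosome 1, 24199558 to 24364482), known for closing and repairing the epidermal barrier, had 5.11, 5.12, 5.57 and 5.21 FPKM in ethanol and 4.84, 4.29, 4.83 and 4.60 FPKM in O/A. Its groups did not overlap either, yet the log2(FC) of -0.13 (95% interval -0.259 to -0.00846) did not pass the adjusted test (edgeR adjusted p = 0.0660). Within libraries the ratio of GRHL1 to GRHL2 rose from 0.126 to 0.235, a difference of 0.90 on the log2 scale (standard error 0.146). The ratio of GRHL1 to GRHL3 rose from 0.227 to 0.327, and that of GRHL2 to GRHL3 fell from 1.81 to 1.39.

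ZNF750 and OVOL1 were the least expressed factors beside GRHL1. ZNF750, which p63 switches on and which in turn activates differentiation genes, lies on chromosome 17 from 82829434 to 82840022 on the minus strand. It had 65, 61, 81 and 106 counts (1.12, 1.10, 1.49 and 1.60 FPKM) in ethanol and 108, 95, 112 and 78 counts (1.93, 1.60, 1.84 and 1.39 FPKM) in O/A. The groups overlapped, with O/A replicate 4 below ethanol replicates 3 and 4. The log2(FC) was 0.39 (standard error 0.135, edgeR adjusted p = 0.0129), but the exact permutation test gave p = 0.114, and the call was lost when any of 4 single libraries was left out. These were ethanol replicates 1 and 2 and O/A replicates 1 and 3, without which the log2(FC) was 0.32, 0.31, 0.32 and 0.34 and the adjusted p from edgeR 0.0618, 0.0640, 0.0604 and 0.0510. Exons of TBCD on the opposite strand cover 222 bases (7.03%) of the exons of ZNF750, and TBCD had 947 to 1129 counts in ethanol against 771 to 901 in O/A. Whether reads were counted by strand is not given in the sources used here, and the part of TBCD in the value of ZNF750 was not tested.

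OVOL1, a zinc finger repressor that supports leaving the proliferating state, lies on chromosome 11 from 65787063 to 65797214 on the plus strand. It had 57, 76, 85 and 81 counts (0.82, 1.14, 1.30 and 1.01 FPKM) in ethanol and 115, 112, 132 and 115 counts (1.71, 1.57, 1.80 and 1.71 FPKM) in O/A. The groups did not overlap, and ethanol replicate 1 was the lowest library. The log2(FC) was 0.72 (standard error 0.126, edgeR adjusted p = 2.64e-06). An antisense gene shares 1039 exonic bases (27.3%) with OVOL1 and held at most 4 counts in any library. Antisense or opposite-strand exons also overlap KLF4 (9.75% of its exons) and smaller shares of GRHL1 and GRHL2, with at most 6 counts on those antisense genes. Low counts there do not show whether reads in the shared exons were left out of the factors' own counts. This was not tested.

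SOX9 lies on chromosome 17 from 72121020 to 72126416 on the plus strand. It had 28.9, 28.3, 28.8 and 27.7 FPKM in ethanol and 15.0, 13.97, 15.3 and 14.7 FPKM in O/A. The spread within each condition was small (SD 0.546 in ethanol and 0.561 FPKM in O/A, n = 4), and every O/A library lay far below every ethanol library. The log2(FC) was -0.90 (standard error 0.0364, edgeR adjusted p = 3.11e-27), at percentile 3.51 of all genes tested. SOX9-AS1, a neighbouring noncoding gene, held between 4 and 14 counts per library.

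Over the 9 factors, 3 (KLF4, KLF5 and OVOL1) had every O/A library above every ethanol library after TMM scaling and 3 (SOX9, GRHL2 and GRHL3) had every one below. Such separation was seen for 47.6% of all genes tested, 22.8% with O/A above and 24.8% with O/A below. For these 6 genes the exact permutation test gave p = 0.0286, the smallest that 4 libraries against 4 allow. The order of the factors by FPKM changed with treatment. FPKM divides by the pooled exons of a gene, so the order between genes depends on that length. In ethanol it ran from KLF5 (43.9 ± 2.46 FPKM, SD, n = 4) through SOX9 (28.4 ± 0.546), TP63 (27.7 ± 0.899), GRHL2 (9.52 ± 0.512), KLF4 (7.68 ± 0.344) and GRHL3 (5.25 ± 0.216) to ZNF750, GRHL1 and OVOL1. In O/A it ran from KLF5 (79.9 ± 3.26 FPKM, SD, n = 4) through TP63 (25.8 ± 1.40), KLF4 (24.4 ± 0.912), SOX9 (14.7 ± 0.561), GRHL2 (6.47 ± 0.1497) and GRHL3 (4.64 ± 0.258) to OVOL1, ZNF750 and GRHL1. SOX9 and TP63 overlapped in ethanol and TP63 and KLF4 in O/A, and neighbours among the 3 lowest genes overlapped in both conditions. All other neighbours were separated.

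Ratios within a library do not depend on how libraries are scaled, and 9 of them were compared. Relative to TP63, per kilobase, KLF4 went from 0.277 to 0.947, KLF5 from 1.58 to 3.09, ZNF750 from 0.0476 to 0.0654 and OVOL1 from 0.0382 to 0.0659, while SOX9 went from 1.03 to 0.571. Thus the counts of KLF4 per kilobase of exon were close to those of TP63 in O/A. The exons of all annotated transcripts were pooled for this, 7479 bases over 14 transcripts for TP63 and 3662 bases over 6 for KLF4. A single mRNA can be shorter, so the ratio between the mRNAs themselves was not measured. In each of the 9 ratios the 4 O/A libraries lay on one side of the 4 ethanol libraries (exact permutation test, two-sided, p = 0.0286, and also 0.0286 after Benjamini-Hochberg adjustment over the 9 ratios). Each p was the smallest that 4 libraries against 4 allow, so the adjustment could not change any of them. The ratios share genes, such as TP63, and are not independent. The smallest change was that of GRHL2 to GRHL3, at -0.38 on the log2 scale (standard error 0.0643), and the largest that of KLF4 to TP63, at 1.77 (standard error 0.0546).

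**Figure D3:**
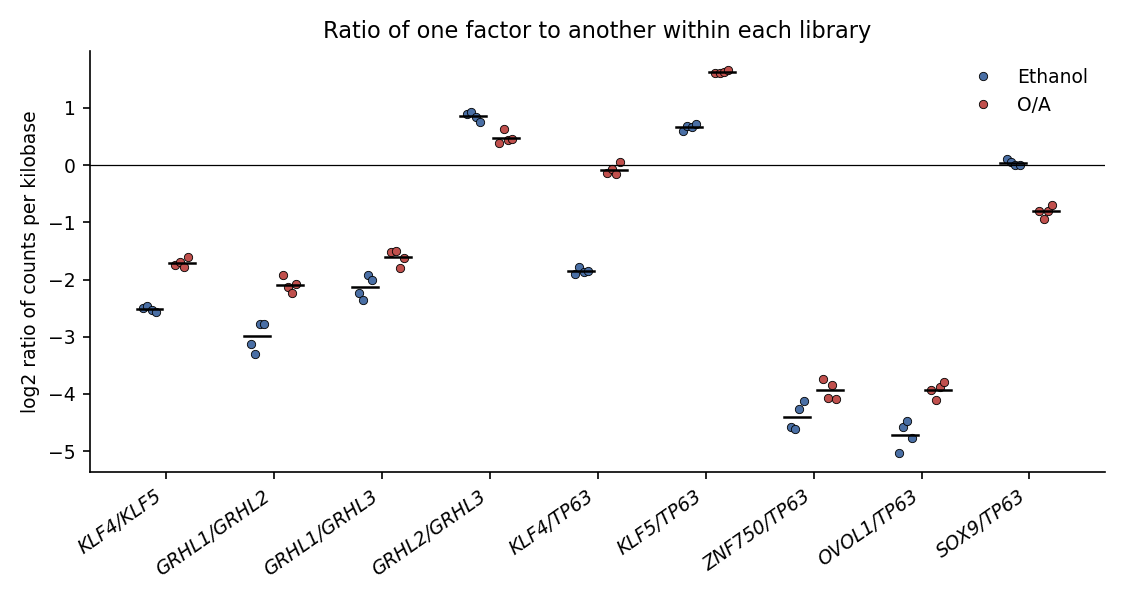
The log2 ratio of the counts per kilobase of one factor to those of another (y axis) in each library, for the 9 ratios compared. Points are libraries, blue for ethanol and red for O/A (n = 4 each), and bars the means. In each ratio the 4 red points lie on one side of the 4 blue points.

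The labels call the cells epidermal keratinocytes, and each of 15 keratinocyte markers had a mean of at least 1 FPKM, led by KRT6A (1510 FPKM in ethanol and 1290 in O/A). Their summed level was 8433 to 8873 FPKM in ethanol and 7575 to 7943 FPKM in O/A, and its part in the changes above was not tested. The markers did not move together, since DSG3 (log2(FC) 0.99, 52.8 to 102 FPKM) and KRT16 (0.39) were called higher, SFN (-0.28), KRT5 (-0.30) and S100A2 (-0.34) lower, and the other 10 were not called. Simple epithelium markers, led by KRT18, summed to 299 to 321 FPKM in ethanol and 301 to 316 FPKM in O/A. Endothelial markers summed to at most 0.08 FPKM in any library, melanocyte markers, of which TYR and MLANA had no count, to at most 1.81 FPKM and fibroblast markers, mainly COL1A1, to at most 2.98 FPKM. Immune markers summed to 0.68 to 1.15 FPKM in ethanol and 1.11 to 1.33 FPKM in O/A, with CD68 (log2(FC) 0.56) and ITGAM (0.95) called higher and CD207 and PTPRC at 0 FPKM, and their part in the changes above was not tested. Between 17210404 and 20999927 reads were counted per ethanol library and between 17689760 and 19263046 per O/A library. Replicates within a condition differed beyond sampling noise (chi-square per degree of freedom 1.78 to 5.95 over 11168 genes), so none was a copy of another.

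Other transcription factors of the epidermis changed more often downwards than upwards. Of 56 on a list drawn up from general knowledge, 43 were tested, 9 were upregulated (20.9%, against 15.8% of all genes tested) and 18 downregulated (41.9%, against 18.9%), with a median log2(FC) of -0.22 against -3.96e-04 over all genes tested. The largest rises were those of CEBPB, a leucine zipper factor that also takes part in keratinocyte differentiation (log2(FC) 2.11, 15.1 to 63.2 FPKM), LMO4 (1.69) and CEBPD (1.11). The largest falls were those of OVOL2, the relative of OVOL1 (log2(FC) -1.57, 3.39 to 1.11 FPKM), SOX4 (-1.17) and BNC1, a zinc finger factor of proliferating basal keratinocytes (-0.97, 46.0 to 22.8 FPKM).

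Genes known as targets of p63 were divided. Of 41 tested, 6 rose (14.6%, against 15.8% of all genes tested), 12 fell (29.3%, against 18.9%) and 23 were not called, with a median log2(FC) of -0.02. JAG1, a Notch ligand, rose most (log2(FC) 1.195, 32.5 to 72.1 FPKM), followed by DDIT4 (0.50) and NRG1 (0.46). JAG2, another Notch ligand, fell most (-1.08), followed by TNS4 (-1.02) and BNC1 (-0.97). The basal keratins that p63 is known to activate stood at -0.30 for KRT5 (1430 FPKM in ethanol and 1130 in O/A), which was called lower, and -0.09 for KRT14 (1070 and 966 FPKM), which was not. KRT15, another keratin on this list, stood at -0.26 (72.1 FPKM in ethanol and 58.2 in O/A) and was called lower. KRT5 and KRT14 were picked as well-known targets, and KRT15 was added, after their values were seen.

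Targets of grainyhead-like factors in epithelia were also divided, with 7 upregulated (25.9%, against 15.8% of all genes) and 6 downregulated (22.2%, against 18.9%) of 27 tested (30 on the list) and a median log2(FC) of -0.01. CLDN1, a tight junction protein of the epidermis, rose from 10.5 to 29.0 FPKM (log2(FC) 1.51), CLDN7 from 3.27 to 4.97 FPKM (0.65) and PRSS8, a membrane-anchored protease of the epidermal barrier, from 15.3 to 21.0 FPKM (0.50). TERT fell from 1.24 to 0.272 FPKM (log2(FC) -2.14), OVOL2 by 1.57 and CGN, the junction protein cingulin, by 0.86 on the log2 scale. N/TERT cells carry an introduced telomerase, and reads from the endogenous and the introduced TERT cannot be told apart here.

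Terminal differentiation genes rose more often than they fell. Of 43 on the list only 25 were tested, because KRT1 and LORICRIN had no count in any library, FLG had at most 3, and 15 others were also too low. Among the 25 tested, 9 rose (36.0%, against 15.8% of all genes), 2 fell (against 18.9% of all genes) and 14 were not called, with a median log2(FC) of 0.21. ALOXE3, a lipoxygenase of the lipid barrier (log2(FC) 0.87), SPRR2D, a cornified envelope protein (0.75, 18.6 to 30.1 FPKM), and CERS3, a ceramide synthase (0.63), rose most. The 2 that fell encode proteins of the cornified envelope, EVPL (envoplakin, -0.52) and IVL (involucrin, -0.31). Part of this list is known to answer to KLF4, ZNF750 or GRHL3, but no factor's binding was measured.

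Of 18 genes, mostly mesenchymal, that OVOL1 or GRHL2 are known to hold down, 13 were tested. The other 5 had too few counts, namely ZEB1 (3 to 18 per library), ZEB2 (1 to 7), SNAI1 (3 to 23), CDH11 (0 to 5) and PRRX1 (0 to 1). The values below thus do not cover them. Of the 13 tested, 1 rose (7.69%, against 15.8% of all genes) and 3 fell (23.1%, against 18.9%), with a median log2(FC) of -0.20. The list also holds MYC and ID2, which are not particular to mesenchymal cells. The share called, 30.8%, was close to the 34.7% of all genes. MMP9 rose from 1.27 to 1.91 FPKM (log2(FC) 0.64). TGFB2 (-1.17) and MYC (-0.67, 42.8 to 26.1 FPKM) were among those that fell. VIM, at 20.4 FPKM in ethanol and 20.6 in O/A, and FN1, at 1010 and 1000 FPKM, were not called and were named after their values were seen.

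Partners and regulators of the p63, KLF and ZNF750 proteins were called in 12 of 35 cases (34.3%, against 34.7% of all genes), 7 higher and 5 lower, with a median log2(FC) of 0.01. KDM6B, a histone demethylase active in differentiation (log2(FC) 1.33), and NEDD4, a ubiquitin ligase (0.45), were among those that rose. ARID1A, a chromatin remodelling subunit (-0.48), WWP2 (-0.36) and SETD1A (-0.34) fell most among genes of at least 1 FPKM.

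**Figure D4:**
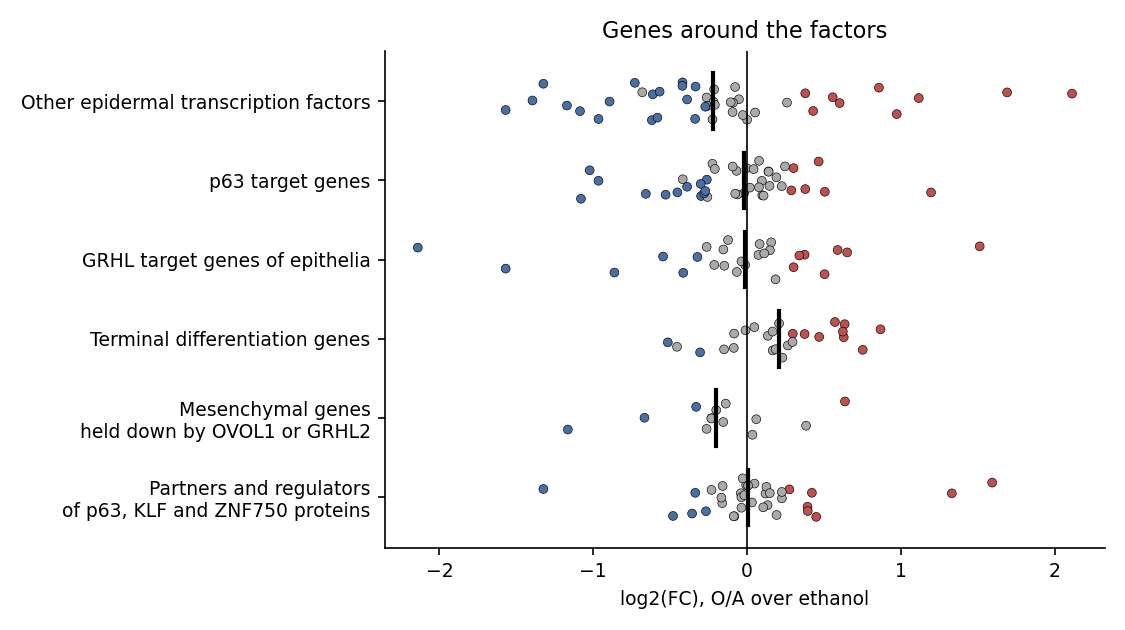
The log2(FC) (x axis, O/A over ethanol) of each tested gene on the 6 lists around the factors, with vertical position within a list drawn at random. Red marks genes called higher, blue genes called lower and grey genes not called, and the black bar is the median of the list. Terminal differentiation genes have a median of 0.21 and other epidermal transcription factors one of -0.22.

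Across the 8 libraries, the genes whose level followed that of KLF4 most closely were GRPEL2 (Pearson r = 0.999, log2(FC) 1.35), SAT1 (r = 0.999, 1.11) and DAPP1 (r = 0.999, 1.49), out of 11395 genes with a mean of at least 1 FPKM. For SOX9 they were GTSE1 (r = 0.999, log2(FC) -1.32), MRPL44 (r = 0.999, -0.51) and CNN2 (r = 0.999, -0.52). These values describe 8 libraries in 2 conditions, so they mostly follow the difference between conditions that all these genes share. For TP63, which was not called, the closest genes were PDK2 (r = 0.987, log2(FC) -0.12), TSFM (r = 0.9753, -0.20) and POLI (r = 0.922, -0.09). O/A replicate 4 was the lowest library of TP63. Without it the log2(FC) was -0.019 for TP63, -0.025 for PDK2 and -0.026 for POLI. That of TSFM lay between -0.31 and -0.06 when each library was left out. The correlations were not computed again without O/A replicate 4, so how far they rest on that library was not tested.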

How the data were processed

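The 4 ethanol and 4 O/A libraries were grouped by the sample labels, which call them biological replicates. The authors selected polyadenylated RNA, aligned paired-end reads to GRCh38.p13 (Ensembl) with HISAT2 2.0.1 and made each count per gene with HTSeq 0.6.1. The Ensembl release is not given in the sources used here. The deposited counts are not normalized. The FPKM values, also made by the authors and deposited beside the counts, are scaled by exonic length and library total. A second deposited table holds the authors' DESeq2 comparison (mean level, fold change, standard error, statistic, p-value and adjusted p-value) and was not used.

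Each gene that reached 10 counts in 4 or more libraries was tested by the quasi-likelihood method of edgeR 4.0.16 under R 4.3.3, in its robust form and after TMM scaling, with p-values adjusted by Benjamini-Hochberg over all genes tested, and standard errors were derived from its F statistic. Ratios of factors were taken on counts plus 0.5 per kilobase of exon. Locus coordinates are those of the deposited table, and the start and end of each factor matched a GENCODE annotation of GRCh38. The fit was also run on simulated counts in which 200 genes were changed. In the data 5165 genes were called, so that run does not cover change on this scale. The members, gene lists and tests were chosen with earlier results of these data known. The genes named from a list are the up to 3 largest rises and 3 largest falls among called genes of at least 1 FPKM in one condition, and some genes that this rule names are not reported here. The alternatives were DESeq2 1.42.0, median-ratio and upper-quartile scaling, no filter, limma 3.58.1 on log2(FPKM + 0.1) and log2(FPKM + 1), a block for replicate numbers, fits without single libraries and other fold change thresholds. Counts of 57 to 236 per library make OVOL1, ZNF750 and GRHL1 less precise than the other factors.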

Additional observations from a re-analysis of the deposited data

Results flagged for a closer look

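In 98 groups of 4 libraries, looked at for the 9 factors, their ratios and the genes named from the lists, 1 library lay far from the other 3 in 1 case, where chance gives about 1 in 20 groups (4.9). In O/A replicate 4, TNS4 stood at 280.7 TMM-scaled CPM, while its 3 fellow libraries ranged from 236.1 to 243.5. Its log2(FC) was -1.08 without that library and -1.02 with it. None of the 9 factors met this criterion.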

How the results depend on the processing

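The direction of the log2(FC) of all 9 factors, and of the genes named from the lists as large rises or falls, held in each alternative fit. At the threshold of 0.25 the same fits kept the calls of KLF4 (1.55 to 1.73), KLF5 (0.85 to 0.94), OVOL1 (0.39 to 0.82), SOX9 (-0.94 to -0.87) and GRHL2 (-0.55 to -0.49). TP63 (-0.10 to -0.02) and GRHL3 (-0.18 to -0.09) were called in none of them, although their adjusted p fell to 0.0149 and 0.0133 in the alternative that gave the lowest. GRHL1 was within the threshold on log2(FPKM + 1), at 0.19. ZNF750 lost its call on log2(FPKM + 0.1), at 0.33, and on log2(FPKM + 1), at 0.21, and lay between 0.31 and 0.50 when each library was left out. The cause was not tested.

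An absolute log2(FC) above 1 left 797 genes (5.35% of those tested, 382 higher and 415 lower) and 1 factor, KLF4. It left 8 other epidermal transcription factors, 3 p63 targets, 3 grainyhead-like targets, 0 terminal differentiation genes, 1 gene of the mesenchymal list and 3 partners. Without a fold change threshold 7999 genes (3868 higher), 28 p63 targets, 8 genes of the mesenchymal list and 21 partners passed. On log2(FPKM + 1) 1514 genes were called higher. When each library was left out, 4987 to 5114 genes and 6 to 7 factors were called.

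Libraries that share a replicate number did not deviate together, with correlations of 0.0443, -0.00324, -0.0281 and 0.0744, so the numbers were not taken as pairs. A replicate block in the fit left the calls of the 9 factors unchanged, and 5160 genes were called with it, of which 5117 were also called without it. The ratios kept their direction with each library left out. Depth limits ZNF750, OVOL1 and GRHL1, the factors with the fewest counts.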

Other observations

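The families to which the factors belong were read from the same fit by symbol, after the values of the factors were seen. The table lists 18 KLF genes, of which 11 were tested, 5 rose and 3 fell, where 15.8% of all genes tested rose and 18.9% fell. Beside KLF4 and KLF5, KLF3 (log2(FC) 0.56), KLF9 (0.43) and KLF11 (0.33) rose, and KLF7 (-0.57), KLF16 (-0.37) and KLF13 (-0.34) fell. KLF6 went from 63.3 ± 1.85 to 52.8 ± 0.587 FPKM (SD, n = 4) and was above KLF5 in ethanol and below it in O/A. Its log2(FC) of -0.21 was within the threshold (edgeR adjusted p = 7.91e-10).

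Of 19 SOX genes 7 were tested, 1 rose and 4 fell, against the same shares of all genes. SOX4 (log2(FC) -1.17), SOX9 (-0.90), SOX12 (-0.83) and SOX6 (-0.39) fell and SOX7 (0.31) rose. SOX6 was low, at 0.188 FPKM in ethanol and 0.138 in O/A with 48 to 91 counts per library, and its groups overlapped (edgeR adjusted p = 0.0347). SOX15, which is abundant in these cells, went from 41.4 ± 2.45 to 37.5 ± 0.958 FPKM (SD, n = 4) and was not called. OVOL1 and OVOL2, close relatives, were called in opposite directions. OVOL1 went from 1.07 ± 0.203 to 1.70 ± 0.0950 FPKM and OVOL2 from 3.39 ± 0.198 to 1.11 ± 0.306 FPKM (SD, n = 4), so the more abundant of them changed with treatment. TP73, a relative of TP63, fell (log2(FC) -1.32) from 0.323 to 0.125 FPKM, with 12 to 47 counts per library, while TP63 (-0.05) was not called.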
